A study of Homo sapiens with 18 samples.

Results

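Interferon-stimulated genes are the 43 genes followed here, of 18475 genes in the deposited table. They were taken by current gene symbol from a list of classical targets of type I and type III interferon, together with the sensors and transcription factors that feed into them, and matched by Entrez number. All 43 were found, 1 of them, STING1, under its older symbol TMEM173. The rule itself uses no measured value.

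RNA-seq compared unirradiated cells with cells given 10 Gy of X-rays in 3 wild-type lines grown as cultures: BEAS-2B, an immortalised line of bronchial epithelium, H446, a line labelled as small cell lung cancer, and A549, a lung adenocarcinoma line. Each line had 3 control and 3 irradiated libraries, 18 in all, and the irradiated cells were harvested 24 h after exposure, with no separate time given for the controls. The study asked whether normal and malignant lung cells respond differently to radiation. Each tissue state is represented by 1 line, and the labels do not say whether the libraries of a group came from separate cultures, so that every p-value measures the spread between libraries only.

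Interferons are secreted proteins that bind receptors on the cell surface and, through the kinases JAK1 and TYK2, activate transcription factors such as STAT2. With IRF9, STAT2 is part of a complex called ISGF3, which binds the interferon-stimulated response element (ISRE) in the promoters of genes that act against viruses. Inside the cell, RNA sensors such as RIG-I and IFIH1 (MDA5), and the DNA sensor CGAS with its partner STING1, start interferon production, and DNA damage is one known source of DNA in the cytosol.

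RefSeq promoter windows of GRCh38.p14, each covering 250 bases before to 50 bases after a transcription start, were held for 32 of the 43 members. The ISRE core was searched on both strands as GAAA, any bases NN and GAAA again, which reads TTTC, NN and TTTC on the other strand. It was found in 22 of these 32 members (68.8%), against 4.38% of the 27305 genes with a window and 3.95% of the 10615 genes with a window that were tested in the fit of all libraries. The gamma-activated site (GAS), an element of genes that respond to interferon gamma, was searched as TTCNNNGAA, which reads the same on both strands. It was found in 9 members (28.1%), against 9.38% of all genes with a window. A match is a run of letters and not a measured binding site.

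The windows shown belong to members that the results below turn on. They are written 5′ to 3′ on the strand of the gene, and capitals mark the motif letters. The first 4 are from genes with very different levels in unirradiated cells of the 3 lines. In ISG15 and in BST2, 2 overlapping ISRE matches ran together into 1 stretch, 113 to 98 bases before the start of ISG15 and 130 to 115 bases before that of BST2. In IFITM3 there were 2 separate matches, the nearer ending 26 bases before the start.
ISG15 (chr1:1013364-1013419, plus strand): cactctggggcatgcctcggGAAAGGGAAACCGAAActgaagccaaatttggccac
BST2 (chr19:17405725-17405780, minus strand): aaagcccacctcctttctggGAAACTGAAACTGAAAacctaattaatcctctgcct
IFITM1 (chr11:313980-314029, plus strand): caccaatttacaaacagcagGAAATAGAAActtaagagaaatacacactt
IFITM3 (chr11:320866-320932, minus strand): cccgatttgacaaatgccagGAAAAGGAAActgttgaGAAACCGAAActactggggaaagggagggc

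The next set is from genes called higher after 10 Gy in A549 or H446 cells. The windows shown for IFIT1 and IFIT3 each held 2 matches in the TTTC orientation, and a second window of IFIT3, not shown, held 2 more. HERC5 held 3, of which the nearby pair is printed.
IFIT1 (chr10:89392487-89392549, plus strand): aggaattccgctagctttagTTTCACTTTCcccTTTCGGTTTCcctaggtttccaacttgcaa
IFIT3 (chr10:89327821-89327904, plus strand): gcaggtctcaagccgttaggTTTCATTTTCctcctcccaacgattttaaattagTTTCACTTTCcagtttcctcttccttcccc
IFI44 (chr1:78649751-78649788, plus strand): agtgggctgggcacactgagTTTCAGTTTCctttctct
SAMD9 (chr7:93118086-93118135, minus strand): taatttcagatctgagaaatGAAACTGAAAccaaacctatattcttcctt
HERC5 (chr4:88456974-88457029, plus strand): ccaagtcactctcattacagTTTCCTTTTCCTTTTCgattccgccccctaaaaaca
PARP9 (chr3:122564312-122564361, minus strand): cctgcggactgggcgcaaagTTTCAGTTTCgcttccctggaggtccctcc

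The last pair is from genes that fell in A549 cells. ISG20 held 1 ISRE match, 69 to 60 bases before its start. IRF1 held no ISRE match and 1 GAS match, 124 to 116 bases before its start.
ISG20 (chr15:88638927-88638976, plus strand): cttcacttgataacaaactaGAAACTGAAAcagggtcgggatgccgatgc
IRF1 (chr5:132490869-132490917, minus strand): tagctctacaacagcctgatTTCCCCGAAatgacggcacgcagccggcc

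The deposited values are treated as FPKM, counts of fragments scaled by transcript length and library size. The 18 libraries summed to between 461255 and 529936 FPKM, and the number of reads behind them is unknown. Across 20 p53 target genes, used to check the labels, the median log2 difference from the control mean was between 0.94 and 0.96 in the irradiated A549 libraries and between -0.05 and 0.03 in those of H446. In BEAS-2B it was 0.85 and 1.04 in irradiated replicates 1 and 3 but 0.06 in irradiated replicate 2. That library stood apart from its group, and the BEAS-2B results are therefore given with and without it. In H446, the deviations of a library from the line's mean followed transcript GC content differently in each group, with a Spearman rho across genes of 0.347 to 0.459 for controls and -0.496 to -0.106 after 10 Gy. In BEAS-2B the rho was -0.629, 0.0133 and -0.379 for controls and 0.449, 0.705 and -0.312 after 10 Gy, highest in irradiated replicate 2. KRT8, a keratin of simple epithelium, had control means of 522 FPKM for BEAS-2B, 1368 for H446 and 533 for A549. The 4 neuroendocrine markers measured summed to only 0.19 to 0.37 FPKM in the H446 controls, against 3.22 to 3.76 in A549, so the label of small cell lung cancer was not matched by its defining markers. Of the fibroblast markers, LUM was at 16.1 FPKM and DCN at 3.27 in the H446 controls, above the other lines, but COL1A1 was at 4.30, below both other lines, PDGFRA was at 0.017 and COL1A2 was listed at 0. Of the endothelial markers, PECAM1 was at 3.81 FPKM, VWF at 0.013 and CDH5 listed at 0, and the 6 leukocyte markers measured summed to at most 0.67.

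The 3 lines held interferon-stimulated genes at very different levels before irradiation, with a ratio of highest to lowest control mean that ran from 1.18 for PARP14 to 593 for BST2. The summed control means of the members were 3085 FPKM in H446, 1422 in BEAS-2B and 482 in A549 cells. A few abundant members weigh heavily in these sums, such as ISG15 at 1099 FPKM in H446 and IFITM3 at 619 in BEAS-2B. The median control mean of the members was 12.5 FPKM in H446, 9.49 in BEAS-2B and 5.18 in A549. Over all genes with a control mean of 1 FPKM or more it was 13.2, 13.0 and 12.3. In bulk libraries, fewer cells with a transcript and less of it per cell cannot be told apart. H446 had the highest control mean for 21 members, BEAS-2B for 18 and A549 for 4, and for 38 of these 43 every library of the highest line lay above every library of the others. A549 was the lowest line for 20 members, H446 for 13 and BEAS-2B for 10. Of the members, 9 had a control mean under 1 FPKM in A549, 4 in BEAS-2B and 3 in H446.

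ISG15, a ubiquitin-like protein that is coupled to other proteins in infected cells, was the most abundant member in H446. The 3 H446 controls held 1157, 1020 and 1120 FPKM, the BEAS-2B controls 35.2, 33.6 and 38.0, and the A549 controls 9.99, 12.3 and 7.75. The lines did not overlap, and H446 was 110 times A549 on the mean FPKM. BST2 (tetherin), which holds budding virus at the cell surface, was at 279 to 306 FPKM in H446, 16.4 to 19.5 in BEAS-2B and only 0.45 to 0.53 in A549. OASL, an enzymatically inactive relative of the RNA-activated oligoadenylate synthetases, was at 267 to 284 FPKM in H446, 274 times its BEAS-2B mean of 0.997 ± 0.211 (SD, n = 3) and also far above its A549 mean of 1.32 ± 0.0513 (SD, n = 3). On the log2 scale the differences between H446 and BEAS-2B controls were 4.91 (SE 0.21) for ISG15 and 7.11 (SE 0.10) for OASL, and that between H446 and A549 controls was 7.62 (SE 0.08) for BST2, with limma adjusted p of 6.33e-14, 6.92e-21 and 1.32e-22. IFI44, whose product binds nucleotides, was at 110 to 117 FPKM in H446 against 1.77 to 2.06 in BEAS-2B, a log2 difference of 5.30 (SE 0.08). HERC5, the ligase that attaches ISG15, was at 76.7 to 85.8 FPKM in H446, 6.41 to 7.16 in BEAS-2B and 0.33 to 0.70 in A549.

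BEAS-2B held the highest levels of the IFITM genes, whose membrane proteins block the entry of viruses. IFITM1 was at 158 to 175 FPKM in BEAS-2B, 3.31 to 3.85 in H446 and 0.68 to 1.68 in A549 controls, 3 ranges that did not overlap. IFITM3 was at 573 to 680 FPKM in BEAS-2B and at 504 to 525 in H446, close together, and at 48.5 to 54.3 in A549. A549 minus BEAS-2B was -6.23 (SE 0.13) for IFITM1 and -3.54 (SE 0.09) for IFITM3 on the log2 scale, with limma adjusted p of 9.66e-19 and 2.35e-17. IFITM2 was at 196 to 224 FPKM in BEAS-2B and at similar levels in H446 (129 to 135) and A549 (120.5 to 141). IFITM2 and IFITM3 are nearly identical in sequence, and reads of 50 bases may not have been divided correctly between them. The 3 genes are neighbours on chromosome 11, IFITM1 lying 4644 bases from IFITM2 and 4403 bases from IFITM3.

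Sensors and transcription factors ranged from a narrow spread for CGAS, with a ratio of highest to lowest control mean of 1.53, to a ratio of 34.3 for STING1. CGAS, which makes the second messenger that activates STING1, was at 9.69 to 11.8 FPKM in BEAS-2B, 8.53 to 9.08 in H446 and 6.62 to 7.26 in A549 controls. STING1 was at 22.3 to 26.4 FPKM in BEAS-2B and 10.9 to 12.7 in H446 but at 0.50 to 0.87 in A549, a log2 difference of -3.88 (SE 0.09, limma adjusted p = 5.28e-18) from BEAS-2B. IFIH1, the sensor of long double-stranded RNA, had control means of 3.90 ± 0.218 in BEAS-2B, 11.2 ± 0.586 in H446 and 8.56 ± 0.407 FPKM in A549 (SD, n = 3). STAT2 was highest in BEAS-2B, at 23.0 ± 0.488 FPKM, against 14.5 ± 0.10 in A549 and 12.5 ± 0.392 in H446 (SD, n = 3). IRF1, a factor induced mainly by interferon gamma, and IRF9, the DNA-binding part of ISGF3, were highest in A549, at 36.7 ± 1.40 and 19.5 ± 0.632 FPKM, and lowest in H446, at 13.4 ± 0.688 and 5.82 ± 0.307 (SD, n = 3). IRF7, which drives interferon alpha genes, was at 5.95 ± 0.423 FPKM in BEAS-2B, 4.05 ± 0.698 in A549 and 1.48 ± 0.0874 in H446 (SD, n = 3). H446, highest for 21 members, was thus the lowest line for each of the 4 factors STAT2, IRF1, IRF7 and IRF9.

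Tested across all 43 members in 1 limma fit of the 18 libraries, H446 controls were higher than BEAS-2B controls for 20 members and lower for 18, beside 35.2% and 45.9% of the 13071 genes tested. A549 controls were higher than BEAS-2B controls for 10 members and lower for 26, beside 38.3% and 45.4% of all genes. H446 controls were higher than A549 controls for 29 members and lower for 12, beside 40.5% and 42.7%. A call at adjusted p under 0.05 was thus common for any gene between these lines. At that threshold the members' counts differ from the background in direction. They lean towards higher levels in H446 than in A549 and lower levels in A549 than in BEAS-2B. With an absolute log2 difference of 1 also required, the larger count of each contrast was above the share of all genes. H446 minus BEAS-2B then had 16 higher and 5 lower, beside 11.1% and 12.8% of genes. A549 minus BEAS-2B had 3 and 14, beside 12.8% and 14%. H446 minus A549 had 21 and 4, beside 13.2% and 14.5%.

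**Figure D1:**
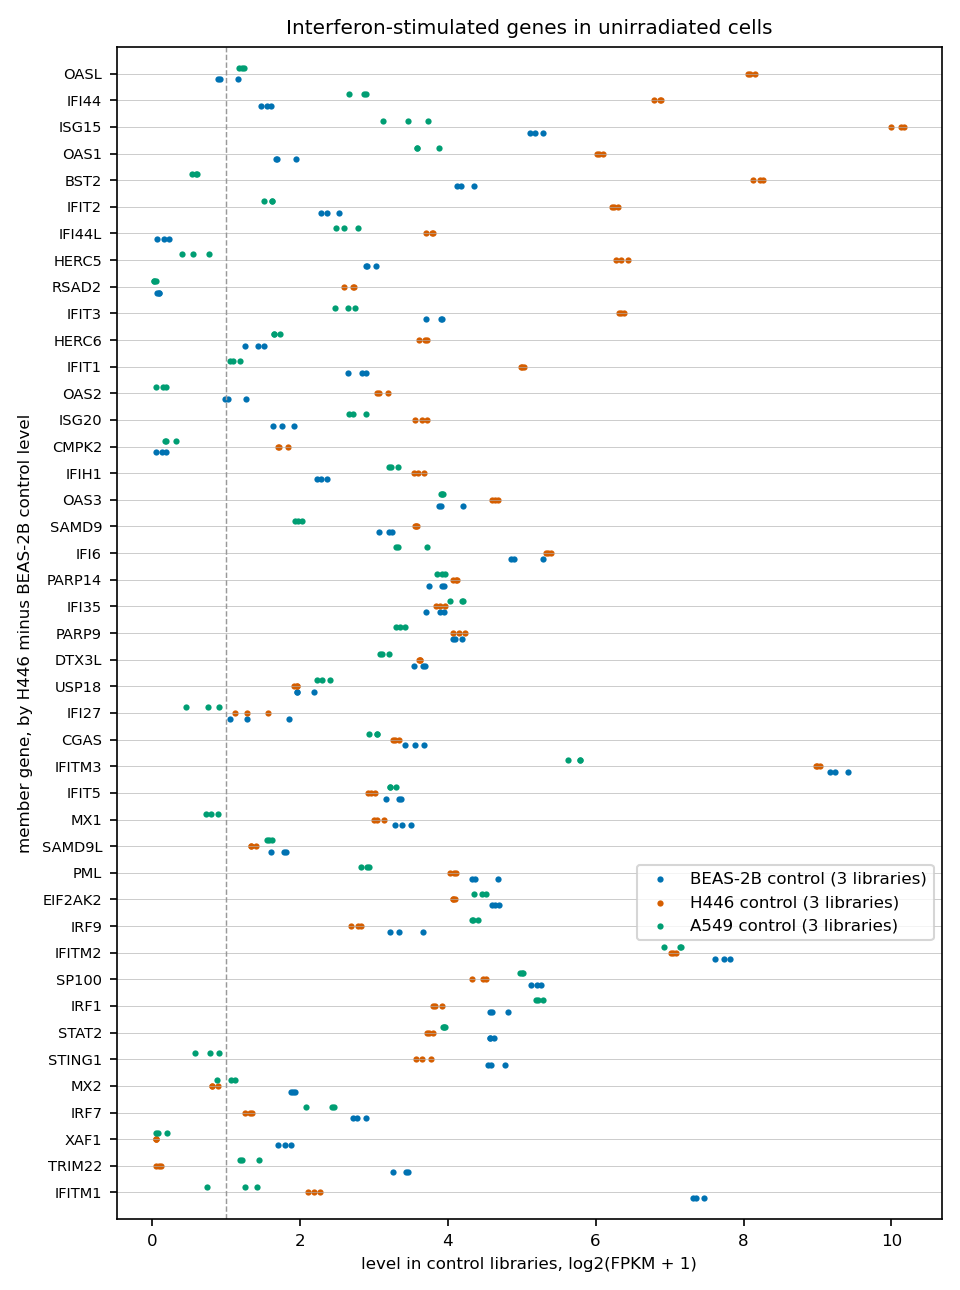
Level of each of the 43 members in the 3 control libraries of each line, as log2(FPKM + 1) on the horizontal axis, with 1 point per library and the genes ordered by the H446 minus BEAS-2B difference. The dashed line is at 1 FPKM. OASL, IFI44 and ISG15 at the top are far higher in H446, and IFITM1, TRIM22 and XAF1 at the bottom are highest in BEAS-2B.

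After 10 Gy, A549 was the line with the most members past the test. Of 34 members that passed the filter (1 FPKM or more in 3 or more of the line's 6 libraries), 17 rose and 6 fell at a Benjamini-Hochberg adjusted p under 0.05, beside 25.3% of 11993 genes that rose and 26.4% that fell. The share of members that rose was thus above that of all genes and the share that fell below it, and the median log2 difference was 0.19 over the members and -0.004 over all genes. The 9 members below the filter in A549 were IFI27, BST2, RSAD2, CMPK2, STING1, MX1, OAS2, IFITM1 and XAF1.

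TRIM22, a ubiquitin ligase with antiviral activity that is also a known p53 target, changed most. It was at 1.72, 1.28 and 1.33 FPKM in the A549 controls and at 5.96, 5.83 and 6.27 after 10 Gy, 2 ranges that were far apart. Its log2 difference was 1.53 (SE 0.08, limma adjusted p = 3.53e-08). IFIT1, which binds viral RNA with a foreign cap, rose from 1.27, 1.14 and 1.08 to 3.50, 4.15 and 3.33 FPKM, a log2 difference of 1.10 (SE 0.09, limma adjusted p = 8.72e-07). Both remained low genes in A549, and on the log2(FPKM + 1) scale the change of a low gene is understated. HERC5 was at 0.33, 0.70 and 0.47 FPKM in the controls and at 1.16, 1.16 and 1.37 after 10 Gy. It is counted among the 17 but passed the filter only through its irradiated libraries, so its values are a description, and the other 16 had a control at 1 FPKM or more. The other IFIT genes moved less. IFIT2 and IFIT3, partners of IFIT1 in a complex, rose by 0.22 (SE 0.07) and 0.33 (SE 0.08), and IFIT5, the fourth gene of the cluster on chromosome 10, was at -0.04 (SE 0.06) and did not pass the test.

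PARP9, an ADP-ribosyltransferase relative that acts with the ligase DTX3L, was at 9.23, 9.76 and 8.88 FPKM in the A549 controls and at 14.5, 14.7 and 12.6 after irradiation. The groups did not overlap, and the log2 difference was 0.54 (SE 0.07, limma adjusted p = 3.32e-05). DTX3L starts head to head with PARP9, the annotated genes overlapping by 447 bases, and the ISRE match of the PARP9 window lies in that of DTX3L as well. DTX3L, named here after its values were seen, was at 8.23, 7.50 and 7.62 FPKM in the controls and at 7.74, 8.46 and 7.58 after 10 Gy, with overlapping groups and a log2 difference of 0.02 (SE 0.06). PARP14, a larger member of the same enzyme family, rose by 0.32 (SE 0.05). SAMD9, an antiviral protein that acts on translation, rose by 0.36 (SE 0.07), while its neighbour SAMD9L was at 0.07 (SE 0.07) and did not pass. ISG15, the OAS genes OAS1 and OAS3, IFI6, IFI44, MX2, the RNA-activated kinase EIF2AK2 (PKR) and the nuclear body gene PML also rose, by 0.19 to 0.41.

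The transcription factors moved in opposite directions in A549 cells. STAT2 rose from 14.4, 14.5 and 14.6 to 19.7, 19.1 and 20.6 FPKM, a log2 difference of 0.43 (SE 0.05, limma adjusted p = 1.32e-05). IRF1 fell from 36.4, 38.2 and 35.5 to 23.7, 26.9 and 25.5 FPKM, a log2 difference of -0.52 (SE 0.05, limma adjusted p = 6.38e-06). Neither gene's groups overlapped. IRF9 was at -0.24 (SE 0.05) and IRF7 at -0.34 (SE 0.10), both past the threshold, though the IRF7 groups met at 3.25 FPKM. Among the sensors, CGAS fell from 7.26, 6.62 and 7.23 to 4.48, 4.67 and 4.72 FPKM (-0.51, SE 0.06, limma adjusted p = 3.02e-05). IFIH1 was at -0.09 (SE 0.06) and did not pass, and STING1 was below the filter, at 0.50 to 0.87 FPKM before and 0.99 to 1.14 after irradiation. The 6 leukocyte markers measured summed to 1.16 to 2.14 FPKM in the A549 controls and to 2.90 to 3.06 after 10 Gy, led by ITGAM, and their part in these changes was not tested. ISG20, an exonuclease that degrades RNA, fell most, from 6.44, 5.35 and 5.55 to 3.25, 3.05 and 3.14 FPKM (-0.71, SE 0.07, limma adjusted p = 1.03e-05), and IFITM3 fell by 0.37 (SE 0.06). In 18 members every irradiated library was above every control and in 5 below, beside 29% and 29.5% of all genes.

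In H446 cells, 12 of 40 members rose and 4 fell, beside 14.8% and 23.6% of 11479 genes. The median log2 difference was 0.06 over the members and -0.03 over all genes. All changes were small, the largest being 0.48, and none reached 1 on the log2 scale. IFI44 rose from 117, 110 and 116 to 155, 156 and 166 FPKM, without overlap (0.48, SE 0.04, limma adjusted p = 1.72e-05). IFIT1 rose from 31.0, 30.9 and 31.6 to 43.2, 39.7 and 48.2 FPKM (0.47, SE 0.06, limma adjusted p = 2.51e-04). SAMD9 rose from 10.9, 10.7 and 11.0 to 14.2, 14.9 and 16.9 FPKM (0.46, SE 0.06, limma adjusted p = 3.45e-04). In each of these 3 genes the groups were separate. HERC6, a relative of HERC5, and OAS2, which makes the activator of RNase L, rose by 0.43 (SE 0.07) and 0.42 (SE 0.07). IFIT2 rose by 0.39 (SE 0.09) and IFIT3 by 0.33 (SE 0.07). MX1, IFITM1, ISG20, SAMD9L and OAS1 rose by 0.17 to 0.30.

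IFITM3 fell in H446 cells from 525, 504 and 510 to 422, 401 and 377 FPKM (-0.36, SE 0.05, limma adjusted p = 2.41e-04), without overlap. Its near-copy IFITM2 fell by 0.30 (SE 0.04), and IFI35 and DTX3L by 0.14 and 0.16. Other abundant members did not pass the test. ISG15 was at 1099 ± 71.0 before and 1067 ± 91.0 FPKM after 10 Gy, BST2 at 294 ± 13.7 and 300 ± 8.10, and OASL at 273 ± 9.10 and 278 ± 30.1 (SD, n = 3), with overlapping groups in each. STAT2, IRF1, IRF7, IRF9, IFIH1, CGAS and STING1 were between -0.13 and 0.13 and none passed the test. TRIM22, at 0.04 to 0.19 FPKM, XAF1 and MX2 were below the filter. In 14 members every irradiated library was above every control and in 5 below, beside 20.4% and 29.9% of all genes. Without a filter on low values 6 members rose, beside 6.8% of genes, and IFIT2 and IFIT3 no longer passed, with limma adjusted p of 0.116 and 0.0828. IFIT3 did not pass in the fit of all 18 libraries either (limma adjusted p = 0.0784). The 5 fibroblast markers summed to between 22.6 and 24.97 FPKM in the H446 controls and to 27.9 to 28.4 after 10 Gy, and their part was not tested. With the trend on GC content removed from each library, 15 members rose and 4 fell, beside 15.8% and 15.1% of all genes, and the median was 0.13 over the members and 0.001 over all genes. At 24 h the calls of H446 and A549 shared 6 members that rose in both, IFIT1, IFIT2, IFIT3, OAS1, IFI44 and SAMD9, and 1 that fell in both, IFITM3, while ISG20 rose in H446 and fell in A549. The share of all genes called alike in both lines was not counted, so this overlap is a description only. IFIT5, OASL, IFI44L, IFIH1, USP18 and SP100 were tested in both and called in neither.

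In BEAS-2B cells, limma called 0 of 40 members, beside 0% of 11734 genes, and 8 members had an unadjusted p under 0.05, beside 12.3% of genes. That count was 4 with the GC trend removed, beside 1135 of 11642 genes, 2 of 43 with no filter, beside 1887 of 18475, 5 without control replicate 1 or irradiated replicate 1, beside 624 and 642 of 11734, and 14 in the fit of all 18 libraries, beside 3006 of 11734. In the fit of all 18 libraries, which pools the spread of the 3 lines, 5 members rose, ISG15, TRIM22, IRF1, STING1 and PML, beside 4.24% of genes. With the replicate number as a block 6 members rose, these 5 among them, beside 2.93% of genes. The median log2 difference was 0.05 over the members and 0.002 over all genes, and the members' median was 0.03 without irradiated replicate 2 and -0.001 without irradiated replicate 3. ISG15 was at 35.2, 33.6 and 38.0 FPKM in the controls and at 69.4, 36.9 and 90.9 in irradiated replicates 1, 2 and 3. Replicate 2 lay within the controls, and the other two were above all of them. TRIM22 was at 10.0, 8.58 and 9.86 FPKM in the controls and at 14.9, 9.53 and 19.0 after irradiation, with the same library low. IRF1 was at 23.2, 27.2 and 22.8 FPKM in the controls and at 36.5, 27.9 and 37.1 after irradiation. With all libraries the log2 differences were 0.78 (SE 0.24) for ISG15, 0.51 (SE 0.19) for TRIM22 and 0.45 (SE 0.11) for IRF1, with limma adjusted p of 0.277, 0.316 and 0.249.

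Without irradiated replicate 2, these 3 members passed the test, beside 1.9% of genes called higher and 0.0682% called lower. That library was left out for the level of its p53 targets after irradiation, and TRIM22 is itself a known p53 target. The p-values without it are therefore conditional on that choice and are a description. The log2 differences became 1.14 (SE 0.11) for ISG15, 0.77 (SE 0.11) for TRIM22 and 0.58 (SE 0.09) for IRF1, with limma adjusted p of 4.36e-04, 0.00622 and 0.00912. No other member passed, and IFIT1 was at 0.11 (SE 0.12). STING1 was at 22.3, 26.4 and 23.0 FPKM in the controls and at 30.8, 30.3 and 29.6 in the irradiated libraries, replicate 2 included, a separation of the groups that gave 0.33 (SE 0.08, limma adjusted p = 0.241). PML was at 0.34 (SE 0.12) and SAMD9 at -0.25 (SE 0.11), with overlapping groups and limma adjusted p of 0.295 and 0.388. IRF1 and STING1 were the members whose irradiated libraries all lay above the controls, and PARP9 the one whose all lay below, beside 7.48% and 8.87% of all genes. ISG15, TRIM22 and IRF1 were lowest among the irradiated libraries in the one where the p53 targets were also at the control level.

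**Figure D2:**
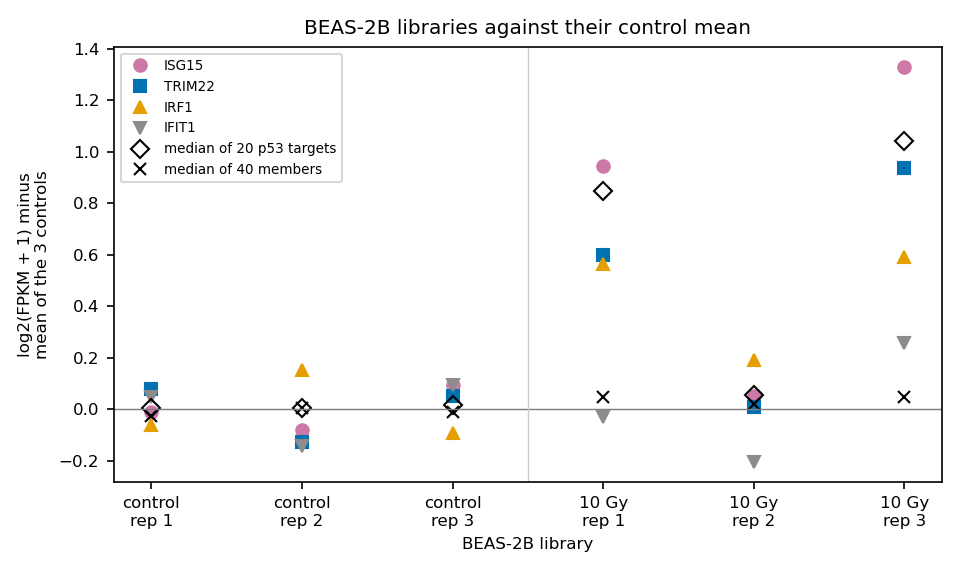
Log2(FPKM + 1) of 4 members in each BEAS-2B library, minus the mean of the 3 controls, beside the median over 20 p53 targets and over the 40 members tested. Irradiated replicate 2 lies near the controls for ISG15 and TRIM22 and for the p53 targets, and the median of the members is within 0.05 of 0 in every library.

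**Figure D3:**
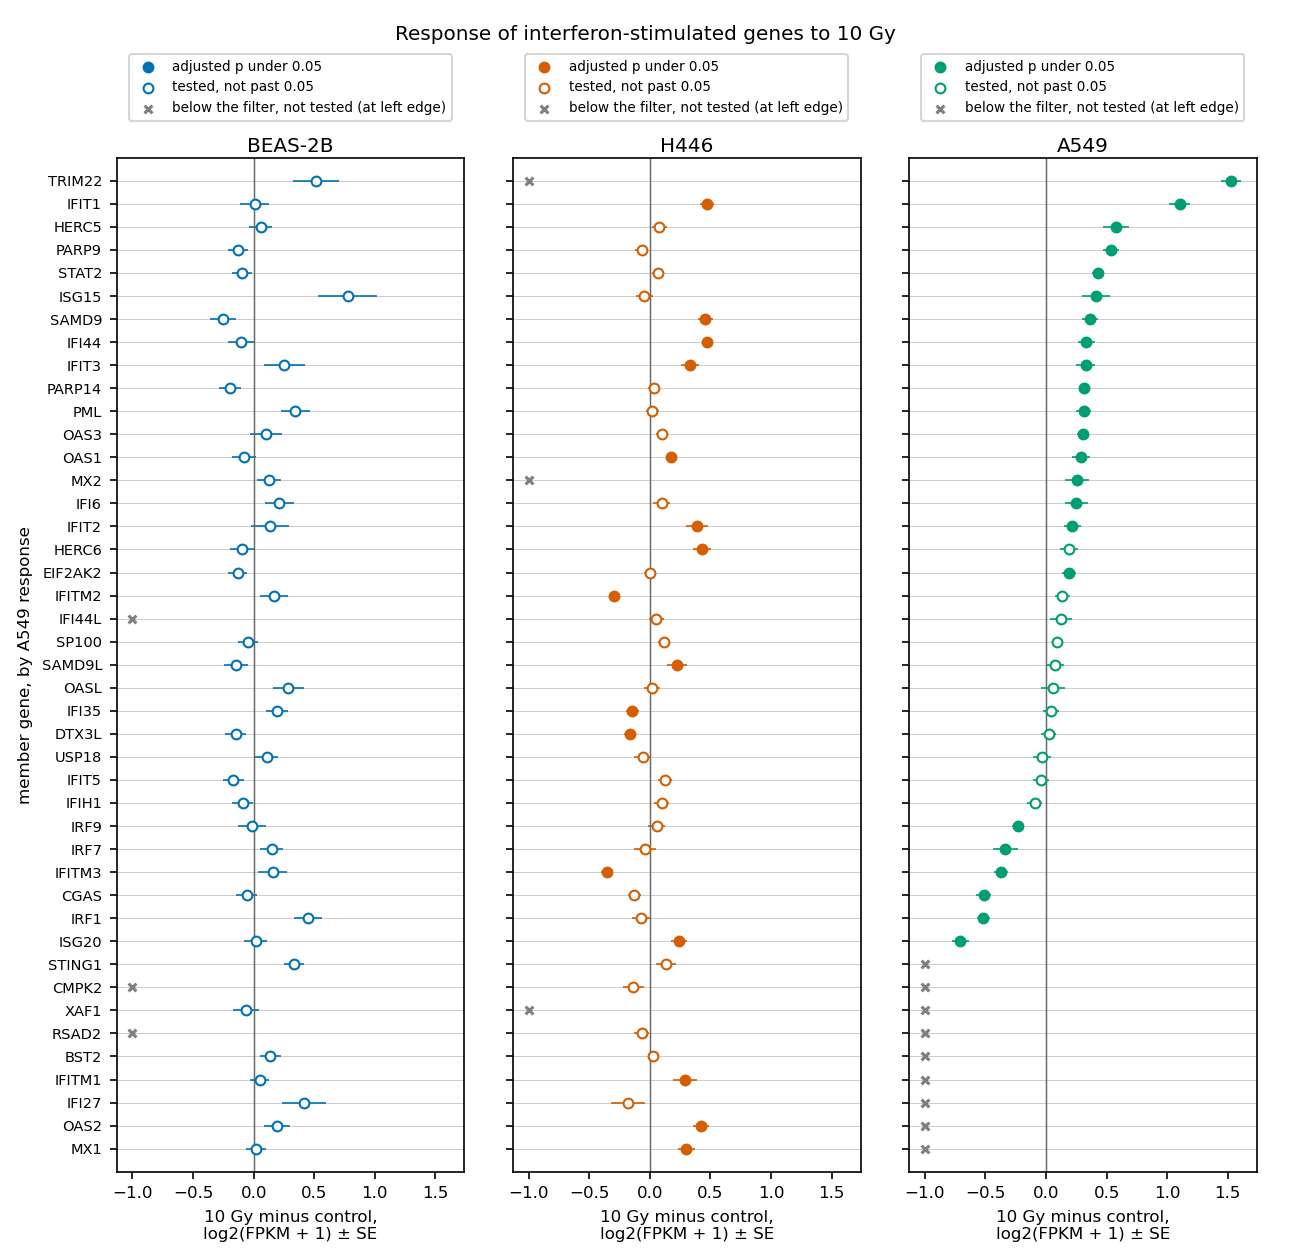
Log2 difference between irradiated and control libraries for each member in the 3 lines, with its limma standard error, 3 libraries per group. Filled points passed an adjusted p of 0.05, open points did not, and crosses mark genes below the filter. Most filled points in A549 lie to the right, those in H446 are nearer 0, and BEAS-2B has none.

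The difference in response between lines was tested in 1 fit of all 18 libraries. The 3 contrasts share libraries and are given side by side. The A549 response exceeded the H446 response for 8 members and was below it for 6, beside 19.3% and 15.3% of 13071 genes. A gene entered this fit when it passed the filter in any 1 line. TRIM22, in H446, and CMPK2, MX1, OAS2 and IFITM1, in A549, were below the filter, so for these 5 called members 1 of the responses was not measurable. For TRIM22, MX1 and OAS2 the difference largely restates the other line's values. For CMPK2 and IFITM1 much of it comes from the low A549 values. There CMPK2 went from a mean of 0.173 to 0.333 FPKM and IFITM1 from 1.25 to 0.82. In H446 they went from 2.38 to 2.08 and from 3.57 to 4.62. Among the 32 members past the filter in both lines, a count chosen after the values were seen, 6 were higher and 3 lower, beside 19.2% and 17.1% of genes. IFIT1 differed by 0.63 (SE 0.14) and PARP9 by 0.60 (SE 0.09), both towards a larger rise in A549, with limma adjusted p of 0.00221 and 9.97e-05. The others higher were IFITM2, STAT2, PARP14 and HERC5, of which HERC5 passed the A549 filter only through its irradiated libraries and so supports nothing, leaving 5. ISG20 differed by -0.95 (SE 0.11, limma adjusted p = 7.42e-06), IRF1 by -0.45 (SE 0.14) and CGAS by -0.39 (SE 0.09). With the GC trend removed, 9 of all 43 members were higher and 9 lower, beside 17.9% and 18.6% of genes. IFIT2, IFIT3, OAS1, IFI44 and SAMD9, which rose in both lines, did not pass the test of the difference, and the estimates were between -0.17 and 0.12.

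The BEAS-2B response exceeded the H446 response for 4 members and was below it for 6, beside 13.7% and 8.99% of genes. SAMD9 differed by -0.71 (SE 0.12), IFI44 by -0.58 (SE 0.11) and HERC6 by -0.53 (SE 0.12), with limma adjusted p of 7.29e-04, 0.00157 and 0.00448. IRF1 differed by 0.52 (SE 0.14, limma adjusted p = 0.0148), and it no longer passed with only the groups compared in the fit (limma adjusted p = 0.0517) or with the GC trend removed (0.0742), where 1 member in place of 4 was higher and 6 were lower, beside 4.84% and 5.65% of genes. The BEAS-2B response exceeded the A549 response for 6 members and was below it for 10, beside 16% and 14.6% of genes, and, among the 33 members past the filter in both lines, for 5 and 10, beside 17.5% and 14.4%, HERC5 again being 1 of the 10. IFIT1 differed by -1.10 (SE 0.14) and TRIM22 by -1.01 (SE 0.21), IRF1 by 0.97 (SE 0.14) and ISG20 by 0.72 (SE 0.11), with limma adjusted p of 2.17e-05, 0.00149, 6.71e-05 and 1.52e-04. Without BEAS-2B irradiated replicate 2, the differences from A549 were -0.99 for IFIT1, -0.76 for TRIM22, 1.09 for IRF1 and 0.73 for ISG20, those from H446 were -0.67 for SAMD9, -0.60 for IFI44, -0.49 for HERC6 and 0.65 for IRF1, and all 8 passed. IRF1 thus fell in A549, was at -0.07 (SE 0.08) in H446, and was raised in BEAS-2B once that library was left out.

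**Figure D4:**
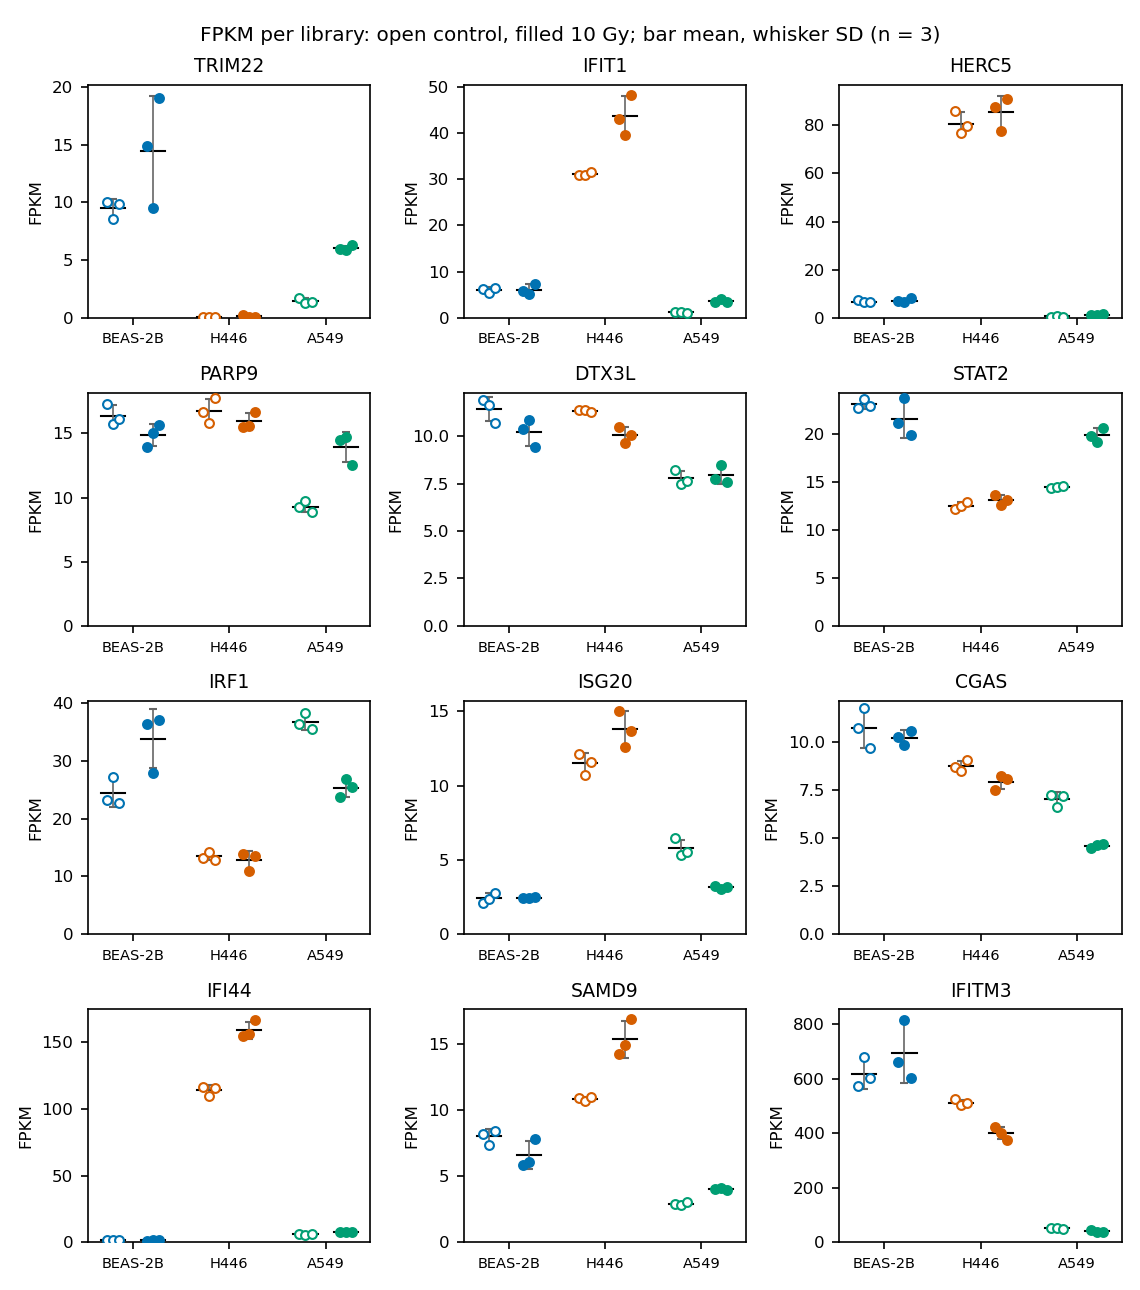
FPKM of 12 members in each library, on axes that start at 0. Open points are controls and filled points 10 Gy, and bars and whiskers give the mean and SD of 3 libraries. TRIM22, IFIT1, PARP9 and STAT2 rise and IRF1, ISG20 and CGAS fall in A549, while IFI44, SAMD9 and IFIT1 rise and IFITM3 falls in H446.

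Genes around the members were read from lists of the pathway. Of 7 interferon ligands in the table, only IFNE, an epithelial type I interferon, was high enough to test. In A549 it rose from 4.18, 4.42 and 4.57 to 7.72, 5.78 and 7.52 FPKM (0.56, SE 0.09, limma adjusted p = 2.66e-04), and in H446 it was at 0.12 (SE 0.09). In BEAS-2B it was at or under 0.40 FPKM. IFNB1 was listed at 0 in all A549 and BEAS-2B libraries and was at most 0.18 FPKM in H446, all of it in the controls.

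Of 9 genes for interferon receptors and their kinases, 8 were tested in H446, where 3 rose and 1 fell, and 8 in A549, where again 3 rose and 1 fell (of all genes, 14.8% and 23.6% in H446, 25.3% and 26.4% in A549). IFNAR2, a chain of the type I receptor, rose by 0.21 (SE 0.05) and IFNGR2, a chain of the interferon gamma receptor, fell by 0.27 (SE 0.05) in A549. In H446 TYK2, a kinase of the type I receptor, fell from 18.7, 16.5 and 16.1 to 16.7, 13.0 and 13.5 FPKM, with overlapping groups (-0.24, SE 0.09, limma adjusted p = 0.0483), and IFNAR1, the other chain of that receptor, rose by 0.21 (SE 0.05). The kinase JAK1 rose by 0.23 (SE 0.04) in H446 and JAK2 by 0.23 (SE 0.05) in A549. Of 14 sensing and signalling genes, 1 rose and 3 fell of 12 tested in H446, and 5 rose and 1 fell of 11 tested in A549, to be read against the same shares. RIGI, the sensor of RNA with a triphosphate end, was at 45.0, 46.5 and 45.5 FPKM in H446 controls and at 72.1, 67.5 and 77.5 after 10 Gy (0.65, SE 0.05), but fell in A549 from 22.7, 22.1 and 22.1 to 17.9, 16.9 and 17.7 (-0.33, SE 0.04). TREX1, the exonuclease that removes cytosolic DNA, fell in H446 from 27.6, 27.8 and 27.1 to 18.9, 17.8 and 14.7 FPKM (-0.66, SE 0.07). Of 8 negative regulators, 2 rose and 1 fell of 7 tested in H446, and 2 rose and 2 fell of 7 tested in A549, again to be read against those shares. In A549 SOCS3, an inhibitor of JAK kinases, fell from 48.4 ± 2.13 to 31.5 ± 1.90 FPKM (-0.61, SE 0.05; SD, n = 3). For all pathway lists the values are given with the GC trend of the H446 libraries left in. Transcript GC content was 63.1% for TREX1 and 61.3% for TYK2, which fell in H446. It was 40.5% for RIGI, 46.2% for JAK1 and 42.3% for IFNAR1, which rose there. The part of the GC trend in these changes was not tested.

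Of 30 further interferon-stimulated genes, 5 rose and 5 fell of 28 tested in H446, and 10 rose and 5 fell of 24 tested in A549 (of all genes, 14.8% and 23.6% in H446, 25.3% and 26.4% in A549), while 0 of 27 were called in BEAS-2B, as in the other pathway lists there. The median log2 difference was 0.006 in H446 and 0.02 in A549. GBP1 and GBP2, GTPases induced mainly by interferon gamma, each rose by 0.68 in H446 (SE 0.04 and 0.06), and SLFN5 by 0.59 (SE 0.07). In A549 GBP1 fell by 0.20 (SE 0.07) and GBP2 rose by 0.31 (SE 0.07). APOL1, a lipid-binding protein, rose by 0.75 (SE 0.05) and ZC3HAV1 (ZAP), which targets viral RNA for decay, by 0.70 (SE 0.05) in A549. CXCL10 and CXCL11, the chemokines most used as interferon readouts, did not pass in H446, at control means of 1.41 and 1.25 FPKM, and were at or under 0.05 FPKM in A549.

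Several members lie in clusters of related genes, whose values are given side by side with no test between the genes (RefSeq positions). On chromosome 10, IFIT2, IFIT3, IFIT1 and IFIT5 lie in this order, 18725, 51654 and 8080 bases apart, and of these IFIT1 rose most in both cancer lines while IFIT5 passed in neither. On chromosome 12, OAS1, OAS3 and OAS2 lie 5254 and 5267 bases apart. In H446, OAS2 and OAS1 rose and OAS3 was at 0.10 (SE 0.05), and in A549, OAS1 and OAS3 rose and OAS2 was at 0.04 to 0.21 FPKM, below the filter. On chromosome 4, HERC6 and HERC5 lie 14021 bases apart, and HERC6 rose in H446 where HERC5, at 80.8 ± 4.62 and 85.5 ± 6.94 FPKM (SD, n = 3), did not pass. Among the members with a window, an ISRE match was held by 11 of 13 that rose, 2 of 4 that fell and 4 of 8 that were not called in A549, and by 7 of 10, 2 of 3 and 13 of 18 in H446. The 11 in A549 include HERC5, which passed the filter there only through its irradiated libraries, so these counts are a description.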

How the data were processed

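Per the labels, poly(A) RNA was read on a BGISEQ-500 as single-end reads of 50 bases. The submitters' processing notes name HISAT2 2.0.4, Bowtie2 2.2.5, RSEM 1.2.12 and hg38, with no roles. The authors deposited 1 table whose unit is not named in the sources used here. The deposited values are taken as FPKM, scaled by the authors for transcript length and library size, as their 2 decimals, unequal totals and larger steps in short genes show. No read counts were held.

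Groups came from the labels. Values were analysed as log2(FPKM + 1). In each line, genes at 1 FPKM or more in at least 3 of 6 libraries were tested with limma 3.58.1 (R 4.3.3, trend on the mean, Benjamini-Hochberg over all genes tested, adjusted p under 0.05). Differences between lines used 1 fit of 18 libraries with 6 group means. At 3 against 3, an exact permutation test cannot go below p = 0.10. GC content came from GENCODE 29 and promoters and positions from RefSeq GRCh38.p14. Alternatives were a pseudocount of 0.1, other filters, quantile scaling, equal totals, GC trend removal (loess, span 0.5), no trend, a replicate block, other sets of libraries in the fit, an absolute log2 limit of 1, and each library left out.

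The members, lists and tests were chosen with earlier results of these data known. Named genes were per line up to 8 called members with the largest change (in BEAS-2B the 6 with the smallest p), the 4 most abundant, up to 4 per contrast between lines, and IFIH1, CGAS, STING1, STAT2, IRF1, IRF7 and IRF9. From each pathway list, up to 3 called genes were named per line. Other genes were named after their values were seen. CD3E, IFNA2, IFNK, IFNG, NEUROD1, INSM1, CLEC4C and LILRA4 were not analysed here. 1 gene of the list of receptors and kinases is not reported here. The scripts were tested on simulated data.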

Additional observations from a re-analysis of the deposited data

Results flagged for a closer look

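The response to 10 Gy differed between lines for the members below by a test of the difference itself, an interaction contrast in limma, which is why they are listed. For TRIM22 the A549 minus H446 difference in log2 response was 1.46 and the BEAS-2B minus A549 difference -1.01, and in H446 the gene was at or under 0.19 FPKM in every library, below the filter, so that the first value restates the A549 rise. For IFIT1 they were 0.63 and -1.10. For ISG20 they were -0.95 and 0.72, with a rise in H446, a fall in A549 and 0.02 in BEAS-2B. For PARP9 the A549 minus H446 difference was 0.60. For IRF1 the BEAS-2B minus A549 difference was 0.97 and the BEAS-2B minus H446 difference 0.52. The BEAS-2B minus H446 difference was -0.71 for SAMD9, -0.58 for IFI44 and -0.53 for HERC6. For the contrasts with BEAS-2B, irradiated replicate 2 of that line stood apart, and without it each of the 8 values named here with BEAS-2B still passed the threshold in the same direction. With the GC trend removed, the BEAS-2B minus H446 difference of IRF1 was 0.40 and no longer passed (limma adjusted p = 0.0742), and with only the groups compared in the fit it was 0.52 and did not pass either (0.0517).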

How the results depend on the processing

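The values carry no depth, so counting error is unknown, and 3 libraries per group limit what small changes could pass. The labels do not say whether the replicate numbers pair the libraries, and the values did not settle it. Deviations of same-numbered libraries correlated between -0.125 and 0.324 in BEAS-2B, 0.0102 and 0.190 in H446, and -0.0993 and 0.0100 in A549. Differently numbered libraries of BEAS-2B correlated between -0.498 and 0.379. With the replicate number as a block, 6 members rose in BEAS-2B in place of 0, beside 2.93% of all genes higher and 0.81% lower, and with all 18 libraries in 1 fit 5 did. The block also raised the members at an unadjusted p under 0.05 in BEAS-2B from 8 to 13, beside 2161 of 11734 genes, and moved no other printed count of members by over 1.5 times. In H446, 6 in place of 12 members rose with no filter on low values, beside 6.8% in place of 14.8% of all genes. There, 2 in place of 4 fell under quantile scaling, equal totals or a fit of all 18 libraries. The share of all genes that fell was 19.0%, 20.3% and 17.85% in these 3 settings, in place of 23.6%. With the GC trend removed, 1 in place of 4 members was higher in BEAS-2B minus H446. The cause of these shifts was not tested. Counting only genes past the filter in both lines, an alternative chosen after seeing the data, 3 in place of 6 members were lower in A549 minus H446, since fewer members were counted.

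With an absolute log2 difference of at least 1 also required, 0 members rose and 0 fell in H446, and 2 rose and 0 fell in A549. For the differences in response, 0 and 0 remained past it in BEAS-2B minus H446, 0 higher and 2 lower in BEAS-2B minus A549, and 1 higher and 0 lower in A549 minus H446. For the controls, 16 were higher and 5 lower in H446 minus BEAS-2B, 3 higher and 14 lower in A549 minus BEAS-2B, and 21 higher and 4 lower in H446 minus A549. Of all genes, 0.061% rose and 0.113% fell past this limit in H446 and 0.467% and 0.425% in A549, 0.191% and 0.0536% were higher and lower in BEAS-2B minus H446, 0.711% and 0.275% in BEAS-2B minus A549, 0.635% and 0.52% in A549 minus H446, and, for the controls in the order above, 11.1% and 12.8%, 12.8% and 14%, and 13.2% and 14.5%. The members' counts moved in turn: without BEAS-2B irradiated replicate 2, 1 was higher and 0 lower in BEAS-2B minus A549 and 1 higher in BEAS-2B minus H446. BEAS-2B minus A549 had 1 lower in place of 2 under equal totals, GC trend removal or without BEAS-2B control replicate 1 or 3, A549 control replicate 2 or 3 or A549 irradiated replicate 3, and 1 higher without BEAS-2B control replicate 2 or A549 irradiated replicate 2. A549 minus H446 had 3 higher at a pseudocount of 0.1, and 1 lower there, under quantile scaling, GC trend removal or without H446 irradiated replicate 2. A549 minus BEAS-2B controls had 6 higher at a pseudocount of 0.1 or equal totals and 5 without BEAS-2B control replicate 3, and H446 minus A549 controls 2 lower under quantile scaling.

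With each library left out in turn, between 0 and 3 members rose in BEAS-2B, the 3 without irradiated replicate 2. In H446, 9 to 13 rose and 2 to 4 fell, with 2 falling in 5 of the 6 fits, all but that without irradiated replicate 1, while the share of all genes ran from 10.4% to 15.5% higher and from 17.7% to 25.5% lower. In A549, 14 to 16 rose and 5 to 6 fell, beside 22.1% to 23.6% and 23.0% to 24.6% of all genes. In BEAS-2B minus H446, 2 to 5 were higher, the 2 without BEAS-2B control replicate 1, and 4 to 9 lower, beside 8.52% to 20.2% and 5.36% to 14.5% of all genes. Over the genes named and all alternatives, 959 values kept their call, 13 became significant, 5 lost significance and 0 changed sign.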
